A study of Mus musculus with 31 samples.

Results

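The genes described here are 44 cell cycle and proliferation genes, chosen by name as a list of textbook cell cycle genes. They were followed across RNA-seq libraries of mouse Ly6C-hi monocytes. All 44 were found by symbol among the 24411 entries of the deposited count table. They were divided by role into 11 G1/S genes, 5 S phase genes, 22 G2/M genes, 3 D cyclins and 3 inhibitors of cyclin-dependent kinases (CDKs). No member had 3 or fewer counts in any library, and all 44 passed the filter on low counts and were tested.

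The libraries form 3 groups of 3, all from C57BL/6J mice: blood monocytes of healthy mice (called healthy blood), blood monocytes of mice carrying subcutaneous LLC tumors (LLC blood), and monocytes taken out of such tumors (LLC tumor). LLC, or Lewis lung carcinoma, is a transplantable mouse lung tumor cell line. Cells were sorted as CD11b+ Ly6G- Ly6Chi MHC-II-. No agent, age or sex is given in the labels, and they do not say whether a library came from 1 mouse or from pooled mice, so p-values measure the spread between these samples, which may be technical. The comparisons ask how the monocytes of tumor-bearing mice differ from those of healthy mice in blood, and how monocytes in the tumor differ from those in blood.

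Cells commit to division in G1, when D cyclins with CDK4 or CDK6 and cyclin E with CDK2 phosphorylate the retinoblastoma protein and free the E2F transcription factors. E2F then switches on the G1/S and S phase genes, which load and copy the DNA, and a later wave of genes driven by B-MYB, FOXM1 and the MuvB complex builds the mitotic machinery. CDK inhibitors such as p21 (Cdkn1a) and p27 (Cdkn1b) hold this engine back. Ly6C-hi monocytes descend from dividing bone marrow precursors, and in blood most of them no longer divide.

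The waves can be read in the promoters. Of the 44 members, 35 had a promoter in the RefSeq table of build GRCm38.p6, which covers 250 bases before to 50 bases after the start. The sequences shown, 5′ to 3′ on the gene's strand, are those of 4 G2/M genes and 2 G1/S genes discussed below. Of these, Ccnb2 and Mcm6 passed the threshold given below in at least 1 comparison, and the others in none. They run up to 200 bases before the listed start and leave out any base inside the gene model. Capitals mark the motifs searched on both strands: the CCAAT box (CCAAT), the cell cycle homology region CHR (TTTGAA or TTCGAA) and the E2F site (TTTCCCGC, TTTCGCGC, TTTGCCGC or TTTGGCGC). Capitals also mark overlapping matches, such as a pair of E2F matches on opposite strands that share bases in Mcm5 and in Mcm6.
Mki67, chr7:135716451-135716579, minus strand: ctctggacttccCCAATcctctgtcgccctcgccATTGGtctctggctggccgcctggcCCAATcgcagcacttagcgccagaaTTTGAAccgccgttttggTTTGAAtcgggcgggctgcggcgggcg
Ccnb2, chr9:70421555-70421754, minus strand: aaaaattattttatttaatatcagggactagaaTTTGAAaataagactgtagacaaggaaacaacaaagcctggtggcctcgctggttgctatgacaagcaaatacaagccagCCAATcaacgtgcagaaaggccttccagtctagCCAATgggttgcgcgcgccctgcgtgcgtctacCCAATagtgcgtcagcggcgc
Top2a, chr11:99024200-99024389, minus strand: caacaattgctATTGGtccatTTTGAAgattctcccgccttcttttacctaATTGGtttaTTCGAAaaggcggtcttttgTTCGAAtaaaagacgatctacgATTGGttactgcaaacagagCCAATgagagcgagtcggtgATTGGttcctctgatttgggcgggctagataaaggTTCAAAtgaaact
Cdk1, chr10:69352913-69353112, minus strand: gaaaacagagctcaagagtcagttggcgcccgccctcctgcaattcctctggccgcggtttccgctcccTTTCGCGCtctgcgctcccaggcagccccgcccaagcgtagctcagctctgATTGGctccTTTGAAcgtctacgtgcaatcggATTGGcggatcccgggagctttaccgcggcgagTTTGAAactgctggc
Mcm5, chr8:75109309-75109467, plus strand: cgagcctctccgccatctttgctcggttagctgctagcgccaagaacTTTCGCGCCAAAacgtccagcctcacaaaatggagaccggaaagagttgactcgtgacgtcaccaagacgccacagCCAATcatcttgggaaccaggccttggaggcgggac
Mcm6, chr1:128359706-128359905, minus strand: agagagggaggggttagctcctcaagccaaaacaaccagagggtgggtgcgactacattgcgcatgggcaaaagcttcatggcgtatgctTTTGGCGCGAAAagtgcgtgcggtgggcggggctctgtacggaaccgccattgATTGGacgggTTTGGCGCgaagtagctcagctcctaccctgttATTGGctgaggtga

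Over the whole windows, the G2/M genes carried CCAAT boxes and CHR letters together. Among the 17 G2/M genes with a promoter, 15 (88.2%) held a CCAAT box and 13 (76.5%) held a CHR, against 37.9% and 19.4% of the 27025 genes in the table. The same 13 held both motifs, against 7.70% of all genes. The E2F letters were in 6 of 9 G1/S promoters (66.7%) and in 2.32% of all promoters. Cdk1 was the G2/M gene with such a match. None of the 5 S phase promoters held CHR or E2F letters, and 3 held a CCAAT box. Among other mitotic genes, 28 of 35 (80.0%) held a CHR, and among other replication genes 7 of 24 (29.2%) held an E2F match. A match in a window is a description of letters and not a measured binding site.

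Libraries held 10457478 to 20706410 counts, and levels are given as CPM, the count of a gene scaled by the total count of its library. The fitted fold changes also use TMM factors, which correct a library total for its makeup: 0.798 for LLC tumor 1 and 0.968 to 1.07 for the other libraries. Overlap between libraries is described on CPM, and where dividing by this factor changes it, that is said. The monocyte markers Itgam, Ccr2, Csf1r and Lyz2 were present in every library. Ly6c2, which encodes a sorting marker, lay between 1099 and 1728 CPM in the blood libraries and between 272 and 472 CPM in the tumor libraries. Several markers of other cells also differed between groups. The summed level of 6 fibroblast markers was 5.84 to 16.4 CPM in healthy blood, 411, 3.53 and 4.25 CPM in LLC blood 1, 2 and 3, and 855, 3299 and 3697 CPM in LLC tumor 1, 2 and 3, with all 6 above 0 in each tumor library. Most of the tumor sum was Col3a1, at 713, 2801 and 3099 CPM. Col3a1, Dcn and Pdgfra were higher in every tumor library than in LLC blood, and the other 3 markers overlapped. Col1a1 and Col1a2 were higher in LLC blood 1 (212 and 131 CPM) than in any tumor library (up to 129 and 103 CPM). Among 6 epithelial markers the sum was 3.94 to 9.79 CPM in blood and 63.4 to 102 CPM in tumor, where Epcam and Krt19 were at 0 in 2 of the 3 libraries. Cdh1, at 39.2 to 58.3 CPM, was the largest part of it in tumor. Krt8, Krt18 and Cdh1 were higher in every tumor library than in blood. Krt7 was lower, at 1.66 to 7.79 CPM in blood and 0.271 to 0.864 CPM in tumor. In bulk RNA, fewer cells of a type and less RNA per cell cannot be told apart.

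Each library numbered 1 in the labels stood apart for cell cycle genes before any comparison. The G2/M sum was 89.0, 185 and 398 CPM in healthy blood 1, 2 and 3. In LLC blood it was 157, 664 and 489 CPM, and in LLC tumor 97.8, 367 and 352 CPM. The library numbered 1 was thus the lowest in every group. Of the 22 G2/M genes, 21 (95.5%) were lowest in library 1 in all 3 groups, as were 7 of 11 G1/S genes, 4 of 5 S phase genes and 12.8% of the 12337 genes tested. Aurkb was the G2/M gene without that order. The labels do not say that a number marks a shared day, animal or batch.

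**Figure D1:**
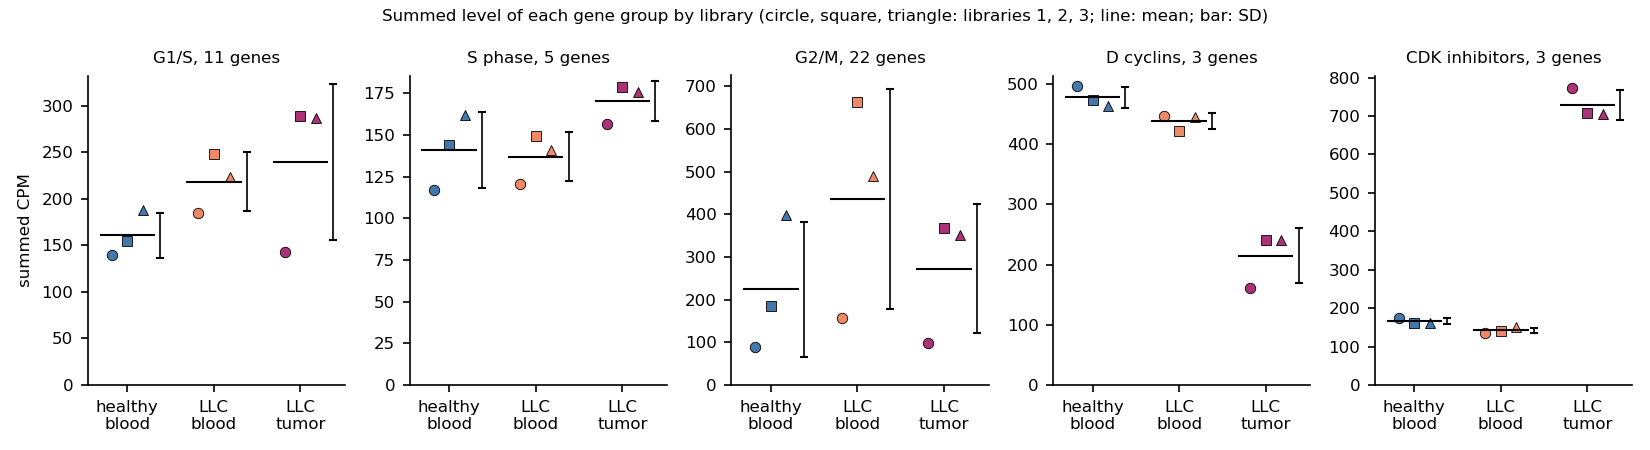
Summed CPM of each gene group (vertical axes) in the 3 libraries of healthy blood, LLC blood and LLC tumor; symbols are libraries 1, 2 and 3, the line is the mean and the bar the SD. The G2/M sum is lowest in library 1 of every group (89.0, 157 and 97.8 CPM), while the inhibitor sum is 136 to 175 CPM in all blood libraries and 706 to 773 CPM in tumor.

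The spread within a group was much larger for G2/M genes than for genes at large. The median G2/M gene differed 5.71-fold between the highest and the lowest library of healthy blood, 5.76-fold in LLC blood and 3.90-fold in LLC tumor. Over all genes tested the same medians were 1.16, 1.17 and 1.39. The 8 erythroid markers, with sums of 200, 475 and 533 CPM in healthy blood 1, 2 and 3, were also lowest in library 1 there, and in LLC blood they were at 173, 900 and 358 CPM. NK cell markers summed to 155, 240 and 385 CPM in healthy blood, 20.5, 30.4 and 38.8 CPM in LLC blood and 1.21 to 3.46 CPM in tumor, where Klre1 was at 0 in every library. Their part in the G2/M spread was not tested. Results are therefore given with and without the 3 libraries numbered 1, a choice made after the data were seen. Those libraries were singled out by these same G2/M values. Leaving them out narrows the G2/M spread by that choice, so G2/M calls gained or kept that way are not separate support.

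**Figure D2:**
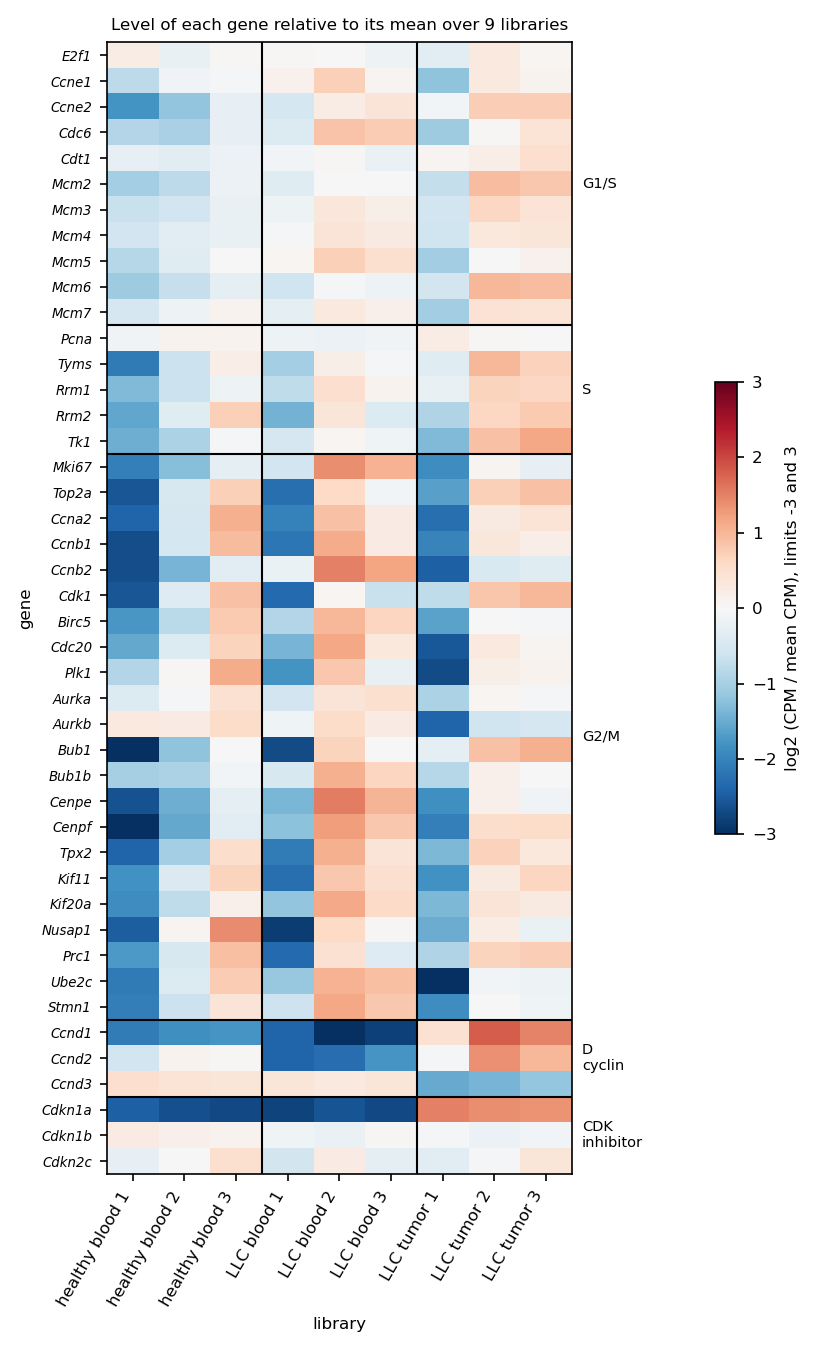
Level of each of the 44 genes (rows, ordered by role) in the 9 libraries (columns) as log2 of CPM over the gene's mean CPM, with the colour scale limited at -3 and 3. The first column of each group holds the lowest value for 21 of the 22 G2/M genes, while Ccnd1 and Cdkn1a are red in the 3 tumor columns.

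A change was called where the adjusted p of edgeR's quasi-likelihood test was under 0.05. In LLC blood against healthy blood, 1 of the 44 members rose and 1 fell, while 14.0% of all genes tested were called higher and 9.61% lower. In LLC tumor against LLC blood, 6 members rose and 3 fell, against 29.6% of all genes higher and 31.7% lower. In LLC tumor against healthy blood, 11 rose and 2 fell, against 33.5% and 33.0%. The share of members called (4.55%, 20.5% and 29.5%) was thus below the share of all genes called (23.6%, 61.3% and 66.5%) in each comparison. The comparisons share libraries, so their calls are not independent. Without the 3 libraries numbered 1 the members called became 12 higher and 4 lower, 14 higher and 9 lower, and 17 higher and 2 lower. The share of members called was then 36.4%, 52.3% and 43.2%, and that of all genes tested also rose, to 40.2%, 68.5% and 73.7%.

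**Figure D3:**
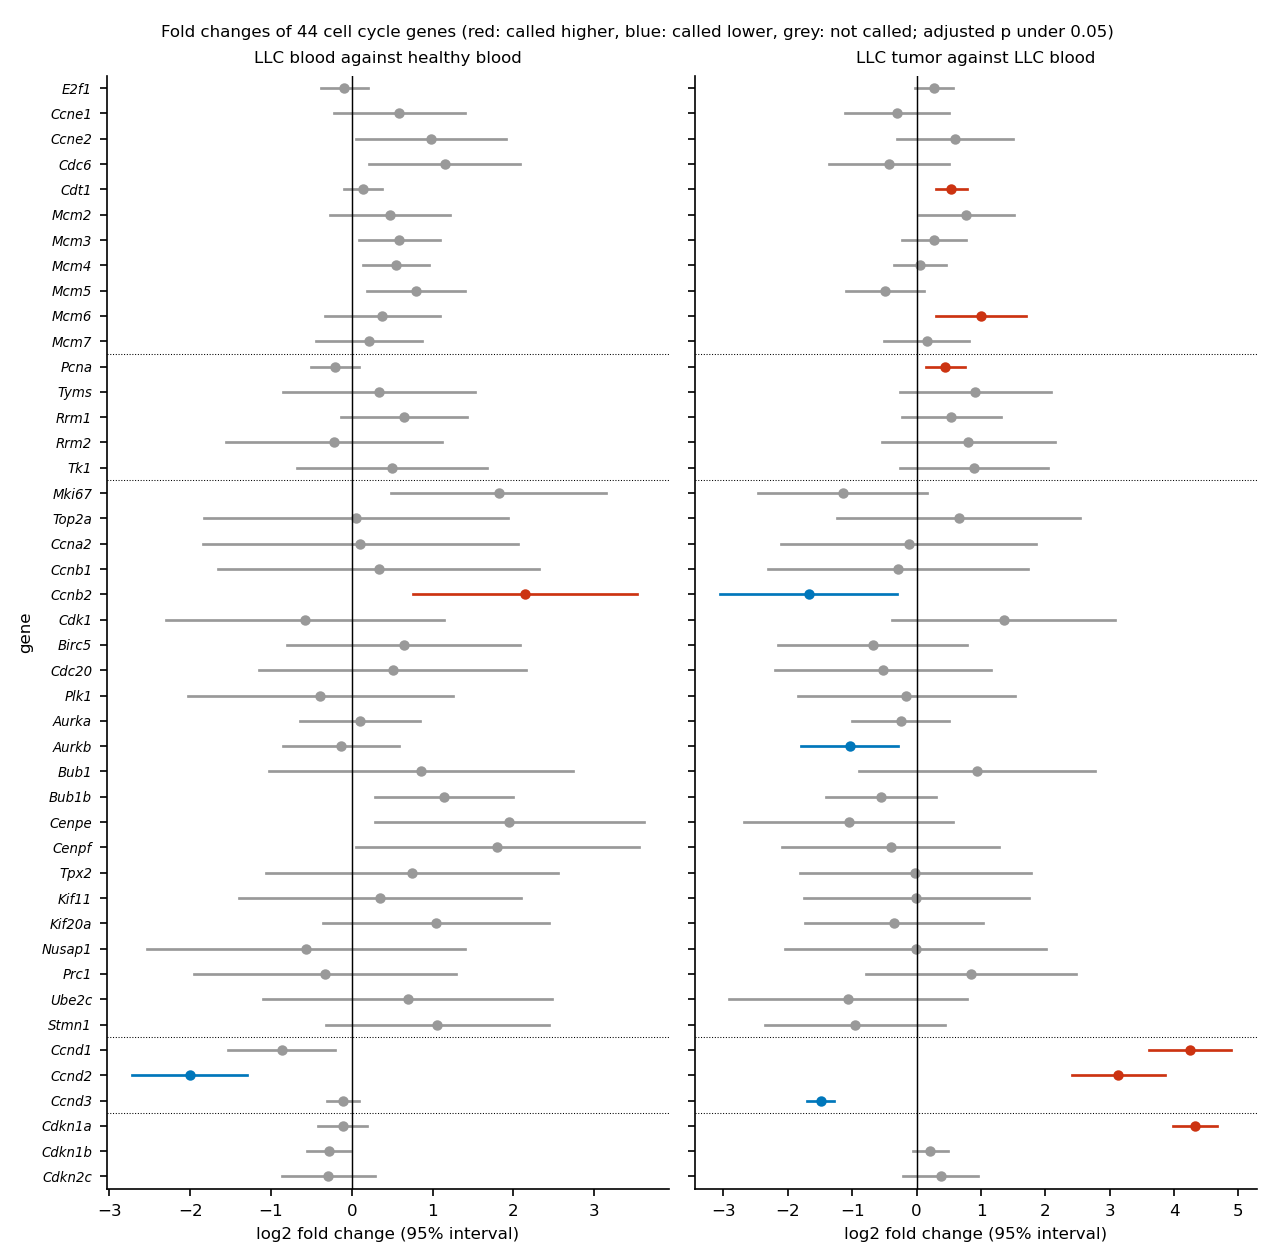
Log2 fold change of each of the 44 genes with its 95% interval (horizontal axes), with LLC blood against healthy blood at the left and tumor against LLC blood at the right; red and blue points were called higher and lower. The G2/M genes have the widest intervals, and the largest changes in tumor are those of Cdkn1a (4.32), Ccnd1 (4.25) and Ccnd2 (3.14).

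The G1/S genes were called higher in tumor monocytes than in healthy blood for 6 of 11 members (54.5%), and the remaining 5 were not called. Of all genes tested, 33.5% were called higher there and 33.0% lower. The 6 that rose were Ccne2, Cdt1, Mcm2, Mcm3, Mcm4 and Mcm6, and all 11 log2 fold changes were positive with a median of 0.68, against -0.00 over all genes tested. Against LLC blood, Cdt1 and Mcm6 rose (18.2%, against 29.6% of all genes tested called higher), and the median was 0.26. None of the 11 was called by edgeR in LLC blood against healthy blood, with 5 at an unadjusted p under 0.05 and a median of 0.55. DESeq2 there called Mcm4 and Mcm5 higher and limma-voom 7 genes, and without the libraries numbered 1 edgeR called Cdc6, Mcm3, Mcm4 and Mcm5 higher.

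Cdt1, which loads the MCM helicase onto replication origins, was at 24.9, 23.8 and 26.1 CPM in healthy blood, 28.1, 30.3 and 25.8 CPM in LLC blood and 31.3, 33.7 and 41.7 CPM in tumor. Every tumor library lay above every blood library, and the healthy blood and LLC blood libraries overlapped. Cdt1 rose 1.45-fold in tumor against LLC blood (log2 fold change 0.54 ± 0.11 SE, adjusted p = 0.00158) and 1.60-fold against healthy blood (0.68 ± 0.11 SE, adjusted p = 0.000349).

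Mcm6, a subunit of the replicative helicase, was at 13.6, 17.8 and 23.2 CPM in healthy blood, 18.9, 27.5 and 25.7 CPM in LLC blood and 19.5, 56.6 and 53.8 CPM in tumor. LLC tumor 2 and 3 were the highest of the 9 libraries, and on CPM LLC tumor 1 lay within the range of both blood groups. Over the TMM factors LLC tumor 1 lay above every healthy blood library and still within the LLC blood range. Mcm6 rose 2.00-fold in tumor against LLC blood (log2 fold change 1.00 ± 0.31 SE, adjusted p = 0.0194) and 2.59-fold against healthy blood (1.38 ± 0.32 SE, adjusted p = 0.00369). The call against LLC blood was lost without LLC blood 1, LLC tumor 2 or LLC tumor 3 (adjusted p = 0.0704, 0.0657 and 0.0685). With library totals only it was also lost (adjusted p = 0.0645). In tumor the fibroblast sum, given above, also was lowest in library 1, and its part in the Mcm6 change was not tested.

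The same order within the tumor was seen in Mcm2, another helicase subunit, at 7.29, 8.6 and 13 CPM in healthy blood, 11.5, 14.5 and 14.8 CPM in LLC blood and 9.03, 28.1 and 25.8 CPM in tumor. On CPM, LLC tumor 1 lay inside the healthy blood range and below LLC blood. Over the TMM factors it lay inside the range of both blood groups. The log2 fold change against healthy blood was 1.25 ± 0.33 SE (adjusted p = 0.00816), and against LLC blood it was 0.77 ± 0.33 SE (adjusted p = 0.0647), which was not called. Mcm3, at 18.3, 41.7 and 36.4 CPM in tumor, and Mcm4, at 21.5, 40.5 and 41.8 CPM, had LLC tumor 1 in or below the range of healthy blood, which was 17.1 to 23.2 CPM for Mcm3 and 21.7 to 27.7 CPM for Mcm4. Over the TMM factors LLC tumor 1 lay just above healthy blood for both, at 23.0 against up to 22.4 CPM for Mcm3 and at 26.9 against up to 26.8 CPM for Mcm4. In LLC blood they were at 24.4, 34.5 and 30.8 CPM and at 31.5, 42.1 and 38.9 CPM, with no overlap with healthy blood but no call (adjusted p = 0.0849 and 0.0556). Against healthy blood, Mcm3 rose in tumor by 0.85 ± 0.22 SE and Mcm4 by 0.60 ± 0.18 SE on the log2 scale (adjusted p = 0.00734 and 0.0156). The Mcm4 call was lost without healthy blood 1, LLC tumor 2 or LLC tumor 3 (adjusted p = 0.0634, 0.0502 and 0.0620). With library totals only it was also lost (adjusted p = 0.107).

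Ccne2, which encodes cyclin E2, a partner of CDK2, was at 0.715, 1.11 and 2.08 CPM in healthy blood, 1.72, 2.91 and 3.24 CPM in LLC blood and 2.35, 4.17 and 4.15 CPM in tumor. All 3 tumor libraries lay above healthy blood, and LLC blood overlapped both groups. It rose 3.00-fold in tumor against healthy blood (log2 fold change 1.58 ± 0.42 SE, adjusted p = 0.00767). The level rests on 10 to 67 counts per library, and its counts were not whole in any library, so reads shared with another gene enter it. E2f1, Ccne1, Cdc6, Mcm5 and Mcm7 were not called in any comparison. Of these, Mcm5, named after its values were seen, was at 13.6 to 24.4 CPM in healthy blood, 25.9 to 40.6 CPM in LLC blood and 11.9 to 27.1 CPM in tumor. Its LLC blood libraries did not overlap healthy blood (log2 fold change 0.79 ± 0.27 SE, adjusted p = 0.0622).

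S phase genes, which make and assemble DNA, were higher in tumor for 1 of 5 members against LLC blood and for 2 of 5 against healthy blood, with medians of 0.80 and 1.18 on the log2 scale. Pcna, the sliding clamp of DNA polymerase, was at 102, 118 and 118 CPM in healthy blood, 98.8, 96.8 and 102 CPM in LLC blood and 128, 113 and 109 CPM in tumor. The tumor libraries were all above LLC blood, and healthy blood lay between and overlapped the tumor range. Pcna rose 1.36-fold in tumor against LLC blood (log2 fold change 0.45 ± 0.13 SE, adjusted p = 0.0167), and the call was lost without LLC blood 2 (adjusted p = 0.0678). In tumor Pcna was highest in library 1, unlike the other S phase genes.

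Rrm1, the large subunit of ribonucleotide reductase, was at 8.86, 14.3 and 20.1 CPM in healthy blood, 13.2, 31.4 and 24.0 CPM in LLC blood and 19.1, 35.3 and 34.6 CPM in tumor. The groups overlapped, but over the TMM factors every tumor library lay above healthy blood (23.9 CPM or more against up to 19.5 CPM). Rrm1 rose 2.27-fold in tumor against healthy blood (log2 fold change 1.18 ± 0.35 SE, adjusted p = 0.0134). Tk1, thymidine kinase 1, was at 1.72, 2.46 and 4.54 CPM in healthy blood, 3.35, 4.91 and 4.30 CPM in LLC blood and 1.9, 8.69 and 10.6 CPM in tumor.

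LLC tumor 1 lay inside the healthy blood range for Tk1, and the other tumor libraries lay above all blood libraries. The log2 fold change against healthy blood was 1.39 ± 0.52 SE (adjusted p = 0.0390), a call lost when any 1 library other than healthy blood 3 or LLC tumor 1 was left out (adjusted p = 0.0510 to 0.156). It was also lost with upper-quartile factors, with library totals only and in a fit of only the 6 libraries compared (adjusted p = 0.0533, 0.0707 and 0.0751). Rrm2, the small reductase subunit, was at 3.07, 7 and 14.8 CPM in healthy blood, 3.35, 11.6 and 6.76 CPM in LLC blood and 4.79, 13.9 and 15.6 CPM in tumor. Its groups overlapped throughout, and it was not called in any comparison, nor was Tyms, thymidylate synthase. In LLC blood against healthy blood edgeR called none of the 5 genes, none was at an unadjusted p under 0.05, DESeq2 called none, and limma-voom called Rrm1 higher and Pcna lower, as did edgeR without the libraries numbered 1.

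Among the G2/M genes, Ccnb2 was higher in LLC blood than in healthy blood and lower in tumor than in LLC blood, and Aurkb was lower in tumor than in either blood group. The other 20 were not called in any comparison. In LLC blood 17 of the 22 log2 fold changes were positive, with a median of 0.57 and a range from -0.58 to 2.15. In tumor against LLC blood 18 were negative, with a median of -0.32, and against healthy blood 14 were positive, with a median of 0.40. Standard errors reached 0.90 on the log2 scale, and the 95% interval took in a 2-fold change for 20 of the 22 genes in LLC blood against healthy blood, 22 in tumor against LLC blood and 21 in tumor against healthy blood.

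Ccnb2, cyclin B2, a partner of CDK1 in mitosis, was at 2.93, 7.06 and 14.6 CPM in healthy blood, 16.3, 52.8 and 42.3 CPM in LLC blood and 3.43, 13.6 and 14.4 CPM in tumor. Every LLC blood library lay above every other library. The level rose 4.42-fold in LLC blood against healthy blood (log2 fold change 2.15 ± 0.61 SE, adjusted p = 0.0335). It fell by 1.67 ± 0.61 SE on the log2 scale in tumor against LLC blood (adjusted p = 0.0378), a comparison that uses the same LLC blood libraries. The first call was lost without healthy blood 1, healthy blood 2, LLC blood 2 or LLC blood 3 (adjusted p = 0.0937, 0.113, 0.124 and 0.102). The second was lost without healthy blood 2, LLC blood 2, LLC blood 3, LLC tumor 1, LLC tumor 2 or LLC tumor 3 (adjusted p = 0.0544, 0.114, 0.0920, 0.0698, 0.0587 and 0.0513). Without the 3 libraries numbered 1, which were chosen by their low G2/M levels, both calls held, which is not separate support.

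Mki67, which encodes the proliferation antigen Ki-67, was at 18.9, 32.4 and 65.0 CPM in healthy blood, 52.5, 205 and 160 CPM in LLC blood and 21.7, 82.6 and 66.1 CPM in tumor. LLC blood 2 and 3 were the highest of all libraries, and LLC blood 1 lay between healthy blood 2 and 3. The log2 fold change of 1.81 ± 0.59 SE (95% interval 0.48 to 3.15) in LLC blood missed the threshold (adjusted p = 0.0528). In tumor against LLC blood it was -1.15 ± 0.58 SE (adjusted p = 0.114). DESeq2 called Mki67 higher in LLC blood, together with Ccnb2, Bub1b and Cenpe.

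Without the libraries numbered 1, edgeR called 7 G2/M genes higher in LLC blood: Ccnb2, Mki67, Bub1b, Cenpe, Cenpf, Kif20a and Stmn1. In tumor against LLC blood it then called 7 lower (Aurkb, Bub1b, Ccnb2, Cenpe, Mki67, Stmn1 and Ube2c) and Cdk1 higher. Against healthy blood it called Bub1 and Cenpf higher and Aurkb lower. The libraries left out were chosen by their low G2/M levels, so these calls are a description and not separate support. Bub1b is a kinase-like protein of the spindle checkpoint, and Cenpe and Cenpf act at the kinetochore.

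Markers of neutrophil granules and their precursors also differed between the blood groups. Of 10 such genes, Elane, Mpo, Prtn3, Ctsg and Mmp8 were higher in every LLC blood library than in every healthy one, Chil3 was lower, and the other 4 overlapped. The share of all genes without overlap was not counted, so the lack of overlap cannot be called particular to these genes. Elane, neutrophil elastase, was at 0.429, 0.553 and 0.368 CPM in healthy blood and 3.35, 8.51 and 5.12 CPM in LLC blood. Prtn3, proteinase 3, was at 7.15, 12.1 and 7.17 CPM and at 29.7, 56.9 and 46.7 CPM. In LLC blood 1, 2 and 3 the granule genes Ngp and Ltf were at 0.287, 23.5 and 9.08 CPM and at 0.574, 22.9 and 9.37 CPM, and these 4 genes had the order of the G2/M sum there. In healthy blood they were highest in library 2, and the G2/M sum in library 3. The 10 genes summed to 3568 to 4077 CPM in healthy blood, 3239 to 3516 CPM in LLC blood and 1253 to 1465 CPM in tumor, most of it Chil3, and none was at 0 in LLC blood. The 7 stem and progenitor markers summed to 321 to 348, 202 to 236 and 96.3 to 98.4 CPM, most of it Cd48. They did not move together in tumor. Kit, Cd34 and Gata2 were higher in every tumor library than in every LLC blood library. Flt3, Myb and Cd48 were lower there, and Hlf overlapped. The part of such cells in the levels of Ccnb2 and the other G2/M genes was not tested.

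Top2a, the topoisomerase that untangles sister chromatids, was at 5.36, 22.9 and 52.3 CPM in healthy blood, 6.69, 47.9 and 30.1 CPM in LLC blood and 10.4, 52.5 and 59.2 CPM in tumor. The groups overlapped almost fully, and the log2 fold change in LLC blood was 0.05 with a 95% interval from -1.83 to 1.93. Stmn1, stathmin, a microtubule-destabilising protein, was at 5.36, 14.4 and 29.5 CPM in healthy blood, 14.5, 50.2 and 39.5 CPM in LLC blood and 6.14, 22.2 and 20.4 CPM in tumor. It was not called (adjusted p = 0.246 between the blood groups and 0.209 in tumor against LLC blood).

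Aurkb, the kinase of the chromosomal passenger complex, was at 14.4, 14.1 and 17.4 CPM in healthy blood, 10.9, 17.5 and 14.1 CPM in LLC blood and 2.26, 7.89 and 8.38 CPM in tumor. Every tumor library lay below every blood library, and the blood groups overlapped. Its highest and lowest libraries differed 1.23-fold in healthy blood and 1.61-fold in LLC blood, the smallest ratio among the 22 genes in each. Aurkb fell by 1.04 ± 0.34 SE on the log2 scale in tumor against LLC blood (adjusted p = 0.0226) and by 1.17 ± 0.34 SE against healthy blood (adjusted p = 0.0116). The first call was lost without LLC blood 2 or LLC blood 3 (adjusted p = 0.0723 and 0.0523), and in a fit of only the 6 libraries compared (adjusted p = 0.0671).

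The makeup of the G2/M signal differed between LLC blood and the other groups, as a description of pairs of genes chosen after their values were seen and given with no test. A ratio of the counts of 2 genes can be compared between libraries because gene length cancels. The Mki67 to Top2a ratio was 3.53, 1.41 and 1.24 in healthy blood, 7.84, 4.27 and 5.33 in LLC blood and 2.09, 1.57 and 1.12 in tumor. All 3 LLC blood libraries lay above the other 6, although LLC blood 1 had a low G2/M sum and LLC blood 2 a high one.

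The ratio of Ccnb2 to Cdk1, the mitotic kinase that it activates, was 2.56, 1.37 and 1.19 in healthy blood, 12.1, 7.55 and 9.94 in LLC blood and 0.864, 1.13 and 1.08 in tumor. It also separated LLC blood from every other library. The Cenpe to Top2a ratio was 0.307, 0.158 and 0.159 in healthy blood, 0.586, 0.608 and 0.681 in LLC blood and 0.270, 0.213 and 0.159 in tumor, with the same separation. Some of these values rest on few counts: Cdk1 had 16 counts in healthy blood 1 and 14 in LLC blood 1.

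**Figure D4:**
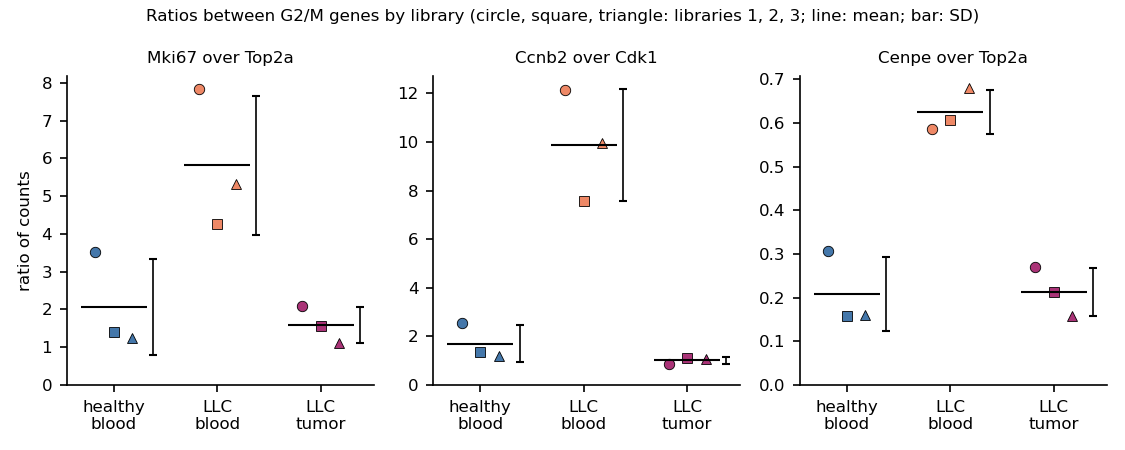
Ratio of counts between pairs of G2/M genes (vertical axes) in the 9 libraries; symbols are libraries 1, 2 and 3, the line is the mean and the bar the SD. The 3 LLC blood libraries lie above the other 6 in each panel, with Ccnb2 over Cdk1 at 7.55 to 12.1 in LLC blood and at 0.864 to 2.56 elsewhere.

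As shares of the G2/M sum, Mki67 made up 21.3%, 17.5% and 16.3% in healthy blood, 33.5%, 30.9% and 32.8% in LLC blood and 22.2%, 22.5% and 18.8% in tumor. Ccnb2 made up 3.29% to 3.82% in healthy blood, 7.95% to 10.4% in LLC blood and 3.51% to 4.10% in tumor. Both shares were higher in each LLC blood library than in any other. Lower shares in LLC blood were seen for Cdk1, at 0.853% to 1.05% against 1.28% to 3.08% in healthy blood and 3.28% to 4.06% in tumor. Prc1, which bundles microtubules of the spindle midzone, followed with 0.975% to 1.59% against 2.65% to 3.65% and 3.36% to 4.25%. Plk1, a mitotic kinase, made up 2.87% to 3.21% in healthy blood, 0.918% to 1.39% in LLC blood and 0.831% to 1.62% in tumor. Bub1, a spindle checkpoint kinase, had its highest shares in tumor, at 2.78% to 4.62% against 0.401% to 1.37% over the 6 blood libraries. Some of these shares rest on few counts: Bub1 had 5 in healthy blood 1 and 9 in LLC blood 1, and Plk1 had 9 in LLC tumor 1. Cdk1, Prc1, Plk1 and Bub1 were named after their values were seen. Shares sum to a fixed total, so a higher share of Mki67 lowers the others.

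All 3 D cyclins were called in tumor against both blood groups: Ccnd1 and Ccnd2 rose and Ccnd3 fell, and these calls held in each of the 19 alternatives tried for them. Ccnd2 fell in LLC blood against healthy blood. Cyclin D1, D2 and D3 are the partners of CDK4 and CDK6 that link growth factor signals to cell cycle entry, and cells use them in different mixes.

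Ccnd1 (chr7:144929931-144939831 in GRCm38.p6) was at 4.65, 5.53 and 5.82 CPM in healthy blood, 3.73, 2.49 and 2.85 CPM in LLC blood and 27, 69.9 and 55.9 CPM in tumor. The 3 groups did not overlap, with tumor highest and LLC blood lowest. It rose 19.0-fold in tumor against LLC blood (log2 fold change 4.25 ± 0.28 SE, adjusted p = 2.22e-06) and 10.4-fold against healthy blood (3.38 ± 0.27 SE, adjusted p = 4.84e-06). In LLC blood against healthy blood the log2 fold change was -0.87 ± 0.29 SE (adjusted p = 0.0601). That value missed the threshold in edgeR and passed it in DESeq2 and limma-voom.

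Within the tumor, Ccnd1 was lowest in library 1 on CPM, as were the fibroblast marker sum (855 CPM against 3299 and 3697 CPM) and the epithelial marker sum (63.4 CPM against 102 and 76.3 CPM). Over the TMM factors the epithelial sum was lowest in library 3, while Ccnd1 and the fibroblast sum stayed lowest in library 1. Cdh1, the largest part of the epithelial sum, was at 52.8, 58.3 and 39.2 CPM. Fibroblasts and tumor cells also express Ccnd1. The part of such cells in its change was not tested. LLC blood 1, with a fibroblast sum of 411 CPM, had the highest Ccnd1 level of the LLC blood libraries.

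Ccnd2 (chr6:127125162-127152188) was at 10.9, 17.4 and 16.7 CPM in healthy blood, 3.06, 3.32 and 4.78 CPM in LLC blood and 15.6, 41.8 and 32.7 CPM in tumor. LLC blood lay below all other libraries, and LLC tumor 1 lay within the healthy blood range. Over the TMM factors it lay above that range, at 19.6 CPM against 10.6 to 16.8 CPM. Ccnd2 fell by 2.01 ± 0.32 SE on the log2 scale in LLC blood, 4.02-fold (adjusted p = 0.00242). It rose 8.80-fold in tumor against LLC blood (log2 fold change 3.14 ± 0.32 SE, adjusted p = 2.86e-05) and 2.19-fold against healthy blood (1.13 ± 0.29 SE, adjusted p = 0.00623).

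Lymphocytes express Ccnd2, and markers of lymphocytes were lower in LLC blood. T cell markers summed to 25.7 to 104 CPM in healthy blood, 3.46 to 4.64 CPM in LLC blood and 1.35 to 2.66 CPM in tumor, and all 6 were listed. B cell markers summed to 17.2 to 174 CPM, 10.4 to 13.8 CPM and 1.72 to 1.95 CPM. Within healthy blood, Ccnd2 and the T, B and NK cell sums were all lowest in library 1. The part of such cells in the fall of Ccnd2 was not tested.

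Ccnd3 (chr17:47505051-47599689) was at 482, 450 and 442 CPM in healthy blood, 440, 417 and 438 CPM in LLC blood and 119, 130 and 153 CPM in tumor. Every tumor library lay far below every blood library. It fell by 1.49 ± 0.09 SE on the log2 scale against LLC blood, 2.81-fold (adjusted p = 1.42e-06), and by 1.60 ± 0.09 SE against healthy blood, 3.04-fold (adjusted p = 8.17e-07). In LLC blood against healthy blood the log2 fold change was -0.11 with a 95% interval from -0.31 to 0.09. Its counts were not whole in any library, so reads shared with another gene enter the level. The Ccnd3 to Ccnd1 count ratio went from 75.8 to 104 in healthy blood and 118 to 167 in LLC blood to 1.86 to 4.41 in tumor.

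**Figure D5:**
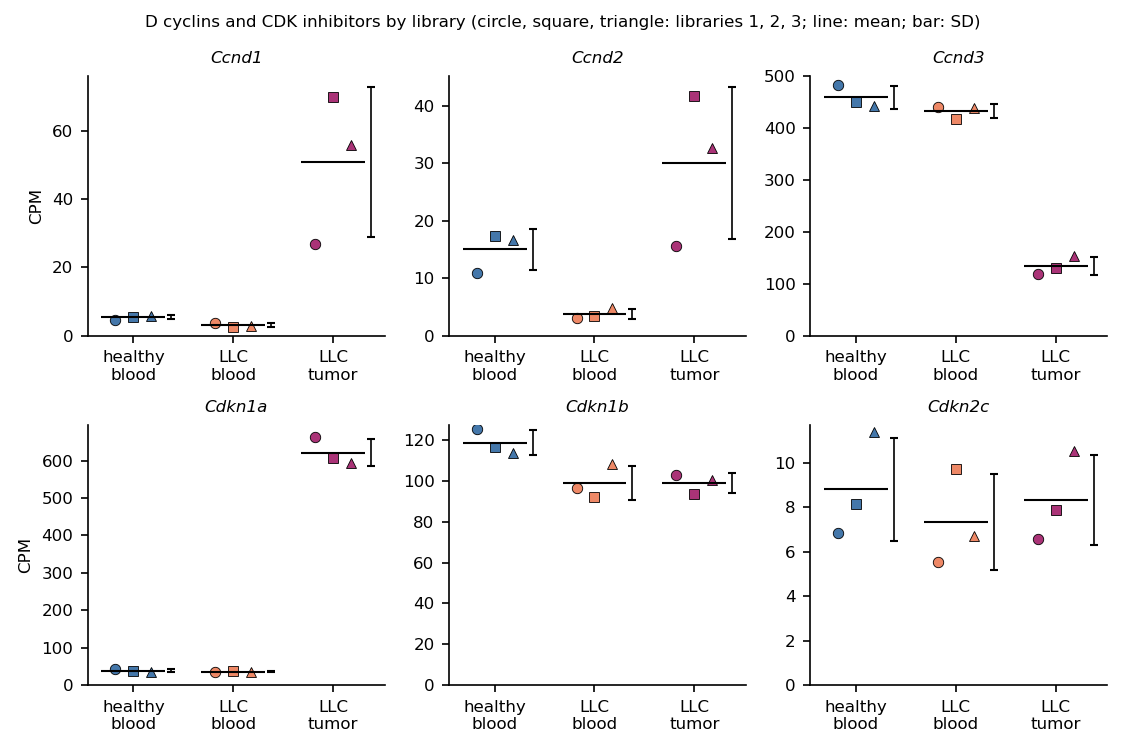
CPM (vertical axes) of the 3 D cyclins and the 3 CDK inhibitors in the 9 libraries; symbols are libraries 1, 2 and 3, the line is the mean and the bar the SD. Cdkn1a is at 33.9 to 42.6 CPM in all blood libraries and at 595 to 664 CPM in tumor, and Ccnd3 is at 417 to 482 CPM in blood and at 119 to 153 CPM in tumor.

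Of the CDK inhibitors, Cdkn1a rose in tumor and the other 2 were not called in any comparison. Cdkn1a (chr17:29090979-29100722), which encodes p21, an inhibitor of CDK2 and a target of p53, was at 42.6, 37.2 and 35.3 CPM in healthy blood, 33.9, 38.8 and 35.4 CPM in LLC blood and 664, 607 and 595 CPM in tumor. The blood groups overlapped, and on CPM the tumor libraries differed by little among themselves. Cdkn1a rose by 4.32 ± 0.15 SE on the log2 scale against LLC blood (adjusted p = 1.23e-07) and 18.5-fold against healthy blood (4.21 ± 0.15 SE, adjusted p = 1.23e-07). The fibroblast and epithelial marker sums, given above, were also higher in tumor, and their part in the rise was not tested.

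Cdkn1b, which encodes p27, an inhibitor typical of resting cells, was at 126, 117 and 114 CPM in healthy blood, 96.4, 92.3 and 108 CPM in LLC blood and 103, 93.3 and 100 CPM in tumor. LLC blood lay below healthy blood, and LLC blood and tumor overlapped. Tumor lay below healthy blood on CPM, but over the TMM factors LLC tumor 1, at 129 CPM, was the highest of all libraries. The log2 fold change in LLC blood was -0.29 ± 0.12 SE (adjusted p = 0.115), and in tumor against healthy blood it was -0.08 ± 0.12 SE (adjusted p = 0.582). Cdkn2c, which encodes p18, an inhibitor of CDK4 and CDK6, was at 6.86 to 11.4, 5.55 to 9.75 and 6.59 to 10.5 CPM in the 3 groups, which overlapped. In LLC blood edgeR called none of the 3 inhibitors, with 1 at an unadjusted p under 0.05. DESeq2 called none there, and limma-voom called Cdkn1b lower, as did edgeR without the libraries numbered 1.

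Other genes of the pathway were taken from lists that hold no member. Their counts are to be read beside the share of all genes called, which was 23.6% in LLC blood against healthy blood, 61.3% in tumor against LLC blood and 66.5% in tumor against healthy blood. Of 13 CDKs and their regulators, 1 rose and 1 fell in LLC blood against healthy blood, and 4 rose and 1 fell in tumor against LLC blood. Cdk6, a partner of D cyclins, was at 1.04 to 1.86 CPM in healthy blood, 4.98 to 5.70 CPM in LLC blood and 15.9 to 24.7 CPM in tumor, with no overlap. It rose by 1.85 ± 0.22 SE on the log2 scale in LLC blood (adjusted p = 0.000706) and by 2.03 ± 0.20 SE in tumor against LLC blood (adjusted p = 2.44e-05). The level in blood is low, and Cdk6 was named for blood after its values were seen.

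Cdk4, the other D cyclin kinase, was at 55.2 to 58.0, 64.4 to 69.6 and 79.2 to 113 CPM, and rose 1.74-fold in tumor against LLC blood (log2 fold change 0.80 ± 0.08 SE, adjusted p = 1.95e-05). Cks2, a small CDK subunit, was at 34.2, 32.6 and 37.0 CPM in healthy blood and at 16.1, 15.4 and 16.1 CPM in LLC blood, and fell by 1.15 ± 0.18 SE on the log2 scale (adjusted p = 0.00256). Cdk7, a CDK-activating kinase, was at 34.7 to 37.5 CPM in healthy blood, 35.2 to 38.9 CPM in LLC blood and 14.6 to 28.9 CPM in tumor. Its log2 fold change in tumor against LLC blood was -0.50 ± 0.15 SE (adjusted p = 0.0174). That call was lost without LLC blood 3 (adjusted p = 0.0549) and in a fit of only the 6 libraries compared (adjusted p = 0.0625).

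Of 19 RB, E2F and DREAM regulators, 4 rose and 5 fell in tumor against LLC blood, with a median log2 fold change of -0.01. Myc, a transcription factor that drives cell growth, was at 3.64 to 5.84 CPM in healthy blood, 1.59 to 4.40 CPM in LLC blood and 41.9, 78.3 and 72.8 CPM in tumor. It rose by 4.88 ± 0.35 SE on the log2 scale against LLC blood (adjusted p = 3.09e-06), and it was lowest in LLC tumor 1, as the fibroblast sum was. E2f2, an E2F factor, was at 228 to 277 CPM in healthy blood, 265 to 293 CPM in LLC blood and 51.2 to 70.6 CPM in tumor, and fell by 1.94 ± 0.09 SE (adjusted p = 3.94e-07). E2f5, of the repressor E2Fs, was at 2.32 to 3.87 CPM in LLC blood and 4.69 to 8.51 CPM in tumor, and rose by 1.20 ± 0.25 SE (adjusted p = 0.00251). Of the 5 listed inhibitors outside the members, 3 were tested, and in tumor against LLC blood Cdkn1c was called higher and Cdkn2d lower (-0.57 ± 0.15 SE, adjusted p = 0.00863). The Cdkn1c call rests on few counts, with a mean of 0.377 CPM in LLC blood, where 3 counts are 0.145 to 0.287 CPM.

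Of 32 other replication genes, 9 rose and 3 fell in tumor against LLC blood, and 12 rose and 3 fell against healthy blood, with medians of 0.55 and 0.73. The share called, 37.5% and 46.9%, was below that of all genes, and the share called higher was near the 29.6% and 33.5% of all genes. Dut, the enzyme that removes dUTP, was at 5.78, 23.6 and 25.0 CPM in tumor and 4.78 to 6.78 CPM in LLC blood (1.72 ± 0.43 SE, adjusted p = 0.00635). Lig1, the replicative DNA ligase, was at 8.67, 22.1 and 24.3 CPM in tumor and 5.64 to 10.4 CPM in LLC blood (1.25 ± 0.40 SE, adjusted p = 0.0224). For both genes LLC tumor 1 lay within the LLC blood range on CPM and above it over the TMM factors (7.24 CPM against up to 6.35 CPM for Dut, 10.9 CPM against up to 9.72 CPM for Lig1). The Lig1 call was lost without LLC blood 1, LLC tumor 2 or LLC tumor 3 (adjusted p = 0.0760, 0.0593 and 0.0816). With library totals only it was also lost (adjusted p = 0.0538).

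Of 38 other mitotic genes, 2 rose and 5 fell in tumor against LLC blood, with a median of 0.04, and 3 rose and 4 fell against healthy blood. Racgap1, which acts in cytokinesis, was at 88.6 to 122 CPM in healthy blood, 76.4 to 86.1 CPM in LLC blood and 9.03, 30.1 and 26.7 CPM in tumor. It fell by 1.70 ± 0.29 SE on the log2 scale against LLC blood (adjusted p = 0.000670). Cenpa, the centromeric histone, was at 11.5 to 20 CPM in healthy blood, 14.5 to 39.4 CPM in LLC blood and 52.9 to 58.6 CPM in tumor, and rose by 1.19 ± 0.32 SE (adjusted p = 0.00918). Kif23, a partner of Racgap1 at the spindle midzone, was at 15.7 to 29.5 CPM in LLC blood and 6.50 to 13.9 CPM in tumor, and fell by 0.93 ± 0.26 SE (adjusted p = 0.0115).

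Few genes of these lists were called in LLC blood against healthy blood. Orc2 and Mcm10 of the replication list rose and Rpa2 fell, Pttg1 of the mitotic list fell, and Rbl2 of the regulators rose. Orc2 and Mcm10 act in the start of replication, Rpa2 binds single-stranded DNA, Pttg1 is securin and Rbl2 is the RB relative p130. Orc2 went from 16.3 to 17.7 CPM across healthy blood libraries and from 22.3 to 25.1 CPM across those of LLC blood, Rpa2 at 18 to 18.4 and 12.3 to 14.2 CPM, Pttg1 at 34.0 to 37.1 and 22.1 to 25.8 CPM, and Rbl2 at 68.6 to 71.1 and 87.2 to 96.5 CPM. These groups did not overlap, but each of the 4 calls was lost in fits that left out 1 library. Orc2 was lost without any 1 of the 6 blood libraries or LLC tumor 3 (adjusted p up to 0.154), and Rpa2 without any 1 blood library other than healthy blood 2 (up to 0.0828). Pttg1 was lost without healthy blood 1, healthy blood 3, LLC blood 2 or LLC blood 3 (up to 0.0875), and Rbl2 without healthy blood 2, healthy blood 3, LLC blood 2 or LLC blood 3 (up to 0.0932). With library totals only the calls of Orc2, Rpa2 and Rbl2 were also lost (adjusted p = 0.119, 0.0921 and 0.0598). Orc2 was lost as well with upper-quartile factors (adjusted p = 0.101) and with no filter on low counts (adjusted p = 0.0627).

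Of 17 tested p53 target genes other than Cdkn1a, 5 fell in LLC blood against healthy blood, and 10 rose and 4 fell in tumor against LLC blood. Plk2, a stress-induced kinase, was at 3.18 to 7.65 CPM in blood and 291, 110 and 128 CPM in tumor, and rose by 5.52 ± 0.55 SE on the log2 scale against LLC blood (adjusted p = 2.48e-05). Gadd45a, a growth arrest gene, was at 8.07 to 12.0 CPM in blood and 70.2 to 109 CPM in tumor, and rose by 3.44 ± 0.24 SE (adjusted p = 3.18e-06). Trp53inp1, a p53-induced stress gene, was at 74.2 to 80.4 CPM in blood and 18.8 to 26.6 CPM in tumor, and fell by 1.63 ± 0.12 SE (adjusted p = 3.62e-06). Of the 5 that fell in LLC blood, Btg2, an antiproliferative gene, had the smallest adjusted p, at 305, 272 and 265 CPM in healthy blood and at 205, 145 and 168 CPM in LLC blood (-0.73 ± 0.15 SE, adjusted p = 0.00869). Bax, Bbc3, Sesn1 and Fas were the others. The call of Bbc3 was lost without healthy blood 1, healthy blood 3, LLC blood 2 or LLC blood 3 (adjusted p = 0.0662, 0.0661, 0.0825 and 0.0871), and that of Fas without healthy blood 2, healthy blood 3, LLC blood 2 or LLC blood 3 (adjusted p = 0.0779, 0.100, 0.0995 and 0.119).

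All 11 antiproliferative genes of resting cells were called in tumor against LLC blood, 7 higher and 4 lower, where 61.3% of all genes were called. Btg1, whose product slows cell growth, was at 355 to 457 CPM in LLC blood and 3015, 1864 and 1944 CPM in tumor, and rose by 2.73 ± 0.26 SE on the log2 scale (adjusted p = 1.94e-05). Mxd1 and Mxi1, antagonists of MYC, were at 39.5 to 58.6 CPM and 66.3 to 70.1 CPM in LLC blood and at 335 to 507 CPM and 401 to 447 CPM in tumor. They rose by 3.36 ± 0.24 SE and 2.86 ± 0.13 SE (adjusted p = 3.29e-06 and 2.74e-07). Foxo3, a transcription factor of quiescence, was at 19.1 to 23.1 CPM in healthy blood, 52.1 to 55.8 CPM in LLC blood and 58.4 to 62.2 CPM in tumor, and rose by 1.36 ± 0.10 SE in LLC blood against healthy blood (adjusted p = 5.43e-05).

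Of the 11, 4 were called in that comparison, 2 higher and 2 lower. Mxd4, a MYC antagonist, was at 21.7, 23.5 and 19.2 CPM in healthy blood and 32.2, 30.0 and 31.4 CPM in LLC blood, and rose by 0.51 ± 0.14 SE on the log2 scale (adjusted p = 0.0262). Klf2, a factor of resting leukocytes, was at 486, 399 and 375 CPM and at 251, 276 and 295 CPM, and fell by 0.64 ± 0.18 SE (adjusted p = 0.0339). Ccng2, cyclin G2, fell by 0.43 ± 0.13 SE (adjusted p = 0.0382). The blood groups did not overlap for Mxd4 or Klf2, but both calls were lost without any 1 of the 6 blood libraries (adjusted p = 0.0640 to 0.104 for Mxd4 and 0.0575 to 0.120 for Klf2). With library totals only both calls were also lost (adjusted p = 0.0704 and 0.0577), as were Mxd4 with upper-quartile factors (adjusted p = 0.0581) and Klf2 without the 3 libraries numbered 1 (adjusted p = 0.0677). The 4 that fell in tumor against LLC blood were Klf2, Mxd4, Tob2 and Foxo1.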

How the data were processed

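The authors deposited, for 9 RNA-seq libraries, a table of estimated counts (expected counts, not normalized) under gene symbols and a table of CPM values (counts scaled by the library total) of 10693 of these genes. Per the labels' protocols, TRIzol RNA went into TruSeq libraries read on a HiScanSQ. The submitters' processing notes name Trim Galore, cutadapt 3.4, STAR 2.6.1d, Salmon 1.9.0, edgeR and mm10 among their tools and builds, without saying which made these tables. The other 22 of the 31 samples (ATAC-seq, CUT&Run and CUT&Tag) were not analysed here. BM in the heads of the blood columns was read as blood monocyte, since the titles name blood. Between 8.56% and 9.73% of the counts per library were not whole. Of the deposited CPM values, 100% were whole multiples of 1 read (within 0.01 reads) and equalled the rounded counts; edgeR on those reads alone called 2584, 6792 and 7236 genes. Dates stood in place of 27 symbols. Whether counting used strand is not given in the sources used here.

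Counts were rounded and fitted with edgeR 4.0.16 (R 4.3.3): all 9 libraries, group as the only term, TMM factors, the filterByExpr filter (12337 genes kept), quasi-likelihood test, Benjamini-Hochberg adjustment over all genes tested in each of 3 comparisons. CPM in the text are rounded counts over library totals, without TMM factors. SE is the absolute log2 fold change over the square root of the F statistic. Every adjusted p comes from this model unless another tool is named. The pipeline was tested on simulated data. Alternatives were DESeq2 1.42.0, limma-voom with quality weights (limma 3.58.1), other scalings, no filter, 6-library fits, a replicate block, stricter thresholds, and leaving out each library.

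The members and lists were chosen with earlier results of these data known. Values by library are given for members called in any comparison, for all D cyclins and inhibitors, and for the 3 members with the highest mean CPM in each of the other groups. Of each other list, at most the 3 called genes with the largest change and a mean of at least 5 CPM are described per comparison; any further gene was named after its values were seen. One gene that this rule names is not reported here. Promoters were searched in the first entry per symbol of the RefSeq table.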

Additional observations from a re-analysis of the deposited data

How the results depend on the processing

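Over 111 log2 fold changes and their alternatives, 2109 values were computed: 1892 kept their direction and their side of the threshold, 96 lost a call and 93 gained one. The other 28 changed sign without a call in either fit, and 0 called values changed sign. The members called in LLC blood against healthy blood numbered 2, but 8 with DESeq2, 19 with limma-voom, 4 with no filter on low counts, 12 in a fit of only the 6 libraries compared, 16 without the 3 libraries numbered 1 and 1 at an adjusted p under 0.01. Leaving out 1 library gave 1 to 12, with 12 without LLC tumor 1, 8 without LLC blood 1 and 5 without healthy blood 3. The members called in LLC tumor against LLC blood numbered 9, but 18 with limma-voom, 23 without the 3 libraries numbered 1 and 5 at an adjusted p under 0.01; leaving out 1 library gave 6 to 13. In LLC tumor against healthy blood 13 were called, but 21 with limma-voom, and 11 to 17 when 1 library was left out. Over all genes the share called moved as well: in LLC blood against healthy blood from 23.6% to 28.0% with DESeq2, 47.7% with limma-voom, 14.4% with no filter, 42.3% in 6 libraries and 40.2% without the libraries numbered 1. With limma-voom it was 72.0% and 75.8% in the tumor comparisons. The cause was not tested. With a replicate block the counts became 14, 17 and 17 in the fit of 9 libraries and 19, 22 and 20 in fits of the 6 libraries compared, where 22.6%, 60.4% and 65.6%, and 41.7%, 55.4% and 59.3%, of all genes were called. Over all genes, 3 of 9 same-numbered pairs correlated above 0.1 (r from -0.14 to 0.30), and 11 of 18 matches were best with their own number. With 3 libraries a group, these values cannot show whether the replicate numbers pair the samples. Scaling by library totals only moved the median log2 fold change of all genes to -0.23 in tumor against LLC blood and -0.17 against healthy blood, and upper-quartile factors to -0.10 in the latter; read against that shift, the D cyclins and Cdkn1a kept their calls. The share of higher among all called genes was 59.4%, 48.3% and 50.4% in the 3 comparisons; it was 46.3% in blood with upper-quartile factors and 36.3% in tumor against LLC blood with library totals. Intervals cover the spread between 3 libraries a group; a count of 0 allows up to 0.145 to 0.287 CPM.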
